A study of Rattus norvegicus with 10 samples.

Results

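The Fos and Jun families encode the subunits of AP-1, a dimeric transcription factor. The genes described here are Fos, Fosb, Fosl1, Fosl2, Jun and Jund, found by their symbols in the deposited table, which makes 6 genes of 23051. Their RNA was sequenced in bulk from rat tendon-derived stem cells (TDSCs), progenitors of tendon, on day 3 of osteogenic induction. One set of cultures received 50 µM farnesol, an isoprenoid alcohol related to the mevalonate pathway, on top of the induction (5 libraries). The controls were induced in the same way without farnesol (5 libraries). Control titles say that these cells were not treated, whereas the library names refer to a vehicle, so what the controls received in its place is not settled by the labels. Replicates are called biological, and no label ties them to different animals or cultures, so the p-values here cover only how these libraries differ, which may be technical.

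AP-1 dimers form through a leucine zipper and bind DNA through the basic region beside it, which together make the bZIP domain. Jun proteins can pair with themselves or with Fos proteins, while Fos proteins need a Jun partner to bind well. Fos and Fosb are immediate early genes, switched on briefly by serum, growth factors or stretch through MAP kinases. Fosl1 and Fosl2, which encode Fra-1 and Fra-2, lack the strong activation domain of Fos and tend to be made for longer. In mice, changes of several of these genes alter bone mass.

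With farnesol, 3 of the 4 Fos family genes were at less than 50% of their control level. Fos was 2.15-fold, Fosb 2.22-fold and Fosl2 2.27-fold lower. Fosb was called in each fit run. The calls of Fos and Fosl2 ended in edgeR when the length slope of each library entered the fit (adjusted p = 0.165 and 0.212). Fosl2 was at -0.23 on the log2 scale there, against -1.18 without the slope. Farnesol and control libraries did not overlap on this slope, so that fit cannot fully tell it apart from farnesol. Jun was lower by a much smaller step, at 1.12-fold, which was gone with a length trend removed (0.04 on the log2 scale, not called). Fosl1 was 1.23-fold higher, which ended when the library axis described below entered the fit. Jund did not pass the test, with 25.1 ± 3.46 CPM in farnesol and 24.1 ± 2.93 CPM in control (CPM are counts scaled to the normalised library total, SD, n = 5 each). By edgeR's quasi-likelihood test, adjusted over all 12893 tested genes at 0.05, this makes 4 members that fell, 1 that rose and 1 that did not pass. In the same comparison 59.5% of all tested genes were called, 29.4% higher and 30.1% lower, so calls were common in the whole table. In 4 members (Fos, Fosb, Fosl2 and Jun) all farnesol libraries lay below all control libraries. Groups were apart in this way for 40.7% of tested genes, 19.8% with farnesol above and 20.9% with farnesol below.

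Total counts per library were 42007942 to 46680133 in farnesol and 41843213 to 47105738 in control. The libraries also differed within groups along 1 direction, called the library axis here (principal component 1 of log2 CPM with group means taken off), which held 36.8% of the variance within groups. Scores along this direction were taken from log2 CPM with the group difference left in, so they also hold the part of that difference along it. Farnesol libraries scored -0.07 to 59.93 on it and control libraries -40.35 to 4.06, and libraries far along it had less signal from long genes. The axis and the length slope (each library's trend of signal on gene length) were each also added to the fit as a covariate. Axis and slope correlated at -0.982 over the libraries, so fits with them are not separate checks. Slopes were -0.1849 to -0.0352 in farnesol and -0.0027 to 0.1696 in control, with no overlap. A fit with the slope thus cannot fully tell it apart from farnesol. The cause of a call that ended there was not tested. Tendon and bone markers ranged from abundant to nearly absent: Tnmd, a late tendon marker, had 0 or 1 counts per library, and Sp7 and Bglap, genes of committed osteoblasts, had at most 8 and 11. Scx, an early tendon factor, was present at 21.4 ± 4.34 CPM in farnesol and 35.3 ± 4.35 CPM in control. Tnc, the matrix protein tenascin C, was 2.42-fold lower at 1320 ± 89 CPM in farnesol and 3200 ± 122 CPM in control. Ibsp, bone sialoprotein, was 2.23-fold lower at 2.95 ± 0.316 CPM in farnesol and 6.6 ± 0.358 CPM in control, and Scx, Tnc and Ibsp were called with either covariate. Spp1, osteopontin, was abundant, at 28899 ± 1820 CPM in farnesol and 25786 ± 304 CPM in control. It was 1.12-fold higher, and called as higher with either covariate. With the length trend removed Spp1 was at -0.00865 on the log2 scale and not called. Of 10 tested tendon and fibroblast markers 4 were lower and 0 higher, and of 5 tested osteoblast markers 3 were lower and 1 higher. Among all tested genes 30.1% were lower and 29.4% higher. The tendon and fibroblast markers gave 6 lower and 1 higher with the axis, and 4 lower and 1 higher for the length slope. With the length trend removed 3 of them were lower and 4 higher. Osteoblast markers gave 2 lower and 1 higher, 1 of each, and 2 lower and 0 higher in these fits, in this order. Shares over all genes were 11.7% lower and 8.9% higher, 4.55% and 3.02%, and 24.5% and 32.1%. Of 7 macrophage markers Ptprc and Adgre1 were at 0 in all libraries, and the summed level of the 7 was 66.1 to 70.4 CPM in farnesol and 49.3 to 53.5 CPM in control, nearly all of it Cd14. Endothelial markers summed to at most 0.835 CPM in farnesol and 0.883 CPM in control, with Cdh5 at 0, and neural and glial markers to at most 3.75 CPM in farnesol and 3.23 CPM in control, with Sox10 at 0. Their part in the results was not tested. In bulk RNA, fewer cells that make a transcript and less of it per cell cannot be told apart.

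Sequence before the gene start was at hand for 4 of the members (RefSeq, build GRCr8) and is shown because these 4 did not move alike: Fosb and Fosl2 fell, Fosl1 rose and Jund did not pass. Each line gives the 250 bases before the start, 5′ to 3′ on the gene's strand, at chr1:88089185-88089434 (minus strand) for Fosb, chr1:212183635-212183884 (plus) for Fosl1, chr6:30039270-30039519 (minus) for Fosl2 and chr16:18769772-18770021 (minus) for Jund. Capitals mark a match to a searched motif.
Fosb: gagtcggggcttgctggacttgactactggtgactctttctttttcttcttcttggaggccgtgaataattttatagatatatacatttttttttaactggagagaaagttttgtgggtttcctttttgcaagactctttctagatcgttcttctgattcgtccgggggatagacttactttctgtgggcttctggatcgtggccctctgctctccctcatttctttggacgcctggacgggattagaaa
Fosl1: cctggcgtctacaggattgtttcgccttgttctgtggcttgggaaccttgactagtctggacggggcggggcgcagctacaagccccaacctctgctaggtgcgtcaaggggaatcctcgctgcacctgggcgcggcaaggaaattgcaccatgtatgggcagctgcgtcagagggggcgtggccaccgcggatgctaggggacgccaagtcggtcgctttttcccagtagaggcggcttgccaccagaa
Fosl2: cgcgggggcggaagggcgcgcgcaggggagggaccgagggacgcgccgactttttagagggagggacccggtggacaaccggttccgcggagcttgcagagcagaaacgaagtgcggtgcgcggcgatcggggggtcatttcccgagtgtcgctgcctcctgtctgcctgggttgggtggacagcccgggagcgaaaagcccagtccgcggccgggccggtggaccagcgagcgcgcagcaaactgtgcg
Jund: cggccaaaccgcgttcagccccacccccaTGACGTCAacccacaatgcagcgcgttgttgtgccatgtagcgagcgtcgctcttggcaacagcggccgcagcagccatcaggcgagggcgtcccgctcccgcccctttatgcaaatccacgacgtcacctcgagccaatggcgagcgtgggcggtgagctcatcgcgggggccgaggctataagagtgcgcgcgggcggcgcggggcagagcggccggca
Searches covered the AP-1 site TGACTCA on both strands, the cyclic AMP response element TGACGTCA, which reads the same on both, and the CArG box, the site of SRF. The Jund window held 1 cyclic AMP response element, with its first base at -221 from the start, and the other 3 windows held none of these motifs. Of 33365 such windows 4.06% held the AP-1 site, 1.59% the cyclic AMP response element and 1.5% the CArG box. The windows also differed in base content, with 43.6% G and C for Fosb, 62% for Fosl1, 70.4% for Fosl2 and 68.4% for Jund.

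Fos, the founding member and a classic immediate early gene, lies on chromosome 6 from 105121170 to 105124036 on the plus strand (build rn7, named in the submitters' processing notes, as for all gene positions here). Its level was 1.06, 1.36, 1.85, 1.5 and 1.17 CPM in farnesol replicates 1 to 5, against 3.38, 2.72, 2.98, 3.03 and 2.84 CPM in control replicates 1 to 5. Every farnesol library lay below every control library. Fos thus changed by -1.10 on the log2 scale (SE 0.17, edgeR's adjusted p = 0.000216). It rests on 48 to 88 reads per library in farnesol and 123 to 152 in control, a low level on day 3. Once the library axis entered the edgeR fit the value was -0.82 (adjusted p = 0.0225). With the length slope it was -0.76 and the call ended (adjusted p = 0.165).

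Fosb, the closest relative of Fos and also an immediate early gene (chromosome 1, 78954115 to 78961465, minus strand), was the member whose call held in each fit run. It had 1.67, 1.84, 1.66, 2.33 and 1.67 CPM in farnesol replicates 1 to 5, and 2.94, 4.41, 3.82, 4.16 and 5.02 CPM in control replicates 1 to 5. The groups did not overlap, and the spread was wider in control. On the log2 scale Fosb changed by -1.15 (SE 0.16, edgeR's adjusted p = 0.000154). The value was -1.12 once the library axis entered the fit, and -1.19 for the length slope (adjusted p = 0.0129). Like Fos it was a low transcript, with 74 to 99 reads in farnesol and 132 to 235 in control.

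Fosl2, which encodes Fra-2 (chromosome 6, 24300956 to 24320034, minus strand), was the more abundant of the members that fell by more than 1 on the log2 scale. Its level was 17.8, 19.5, 22, 21.2 and 13.6 CPM in farnesol replicates 1 to 5, against 60.5, 43, 30.7, 35.8 and 43.5 CPM in control replicates 1 to 5. No library of one group reached the other, but control libraries spanned nearly a 2-fold range, with control 1 highest and control 3 lowest. In edgeR the change was -1.18 on the log2 scale (SE 0.17, adjusted p = 0.000161), from means of 18.8 ± 3.34 CPM in farnesol and 42.7 ± 11.3 CPM in control (SD, n = 5 each). The library axis moved with this gene inside both groups: farnesol 5, at 13.6 CPM, scored 59.93 and control 1, at 60.5 CPM, scored -40.35. With the axis as a covariate the log2 fold change was -0.50 (adjusted p = 0.00043), and with the length slope it was -0.23 and no longer called (adjusted p = 0.212). Its gene model was the longest of the 6, at 5171 bases.

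Fosl1, which encodes Fra-1 (chromosome 1, 202754529 to 202764930, plus strand), had 15, 16.7, 15.1, 13.9 and 21.5 CPM in farnesol replicates 1 to 5, against 14, 12.3, 14.4, 12.6 and 13.6 CPM in control replicates 1 to 5. The groups overlapped, since farnesol 4 lay below 2 control libraries, and farnesol 5 was the highest library. In edgeR Fosl1 changed by 0.30 on the log2 scale (SE 0.11, adjusted p = 0.0327). Without farnesol 5, the library farthest along the axis, it was 0.19 and not called (adjusted p = 0.0548). The call also ended without farnesol 2, control 2, control 4 or control 5, and the value was 0.00 when the axis entered the fit and -0.04 when the length slope did. A gene on the opposite strand, Ccdc85b, overlaps the end of Fosl1 and had 0 counts in each of the 10 libraries. No source used here says if strand entered the counting, and without it the reads of this pair cannot be told apart.

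**Figure D1:**
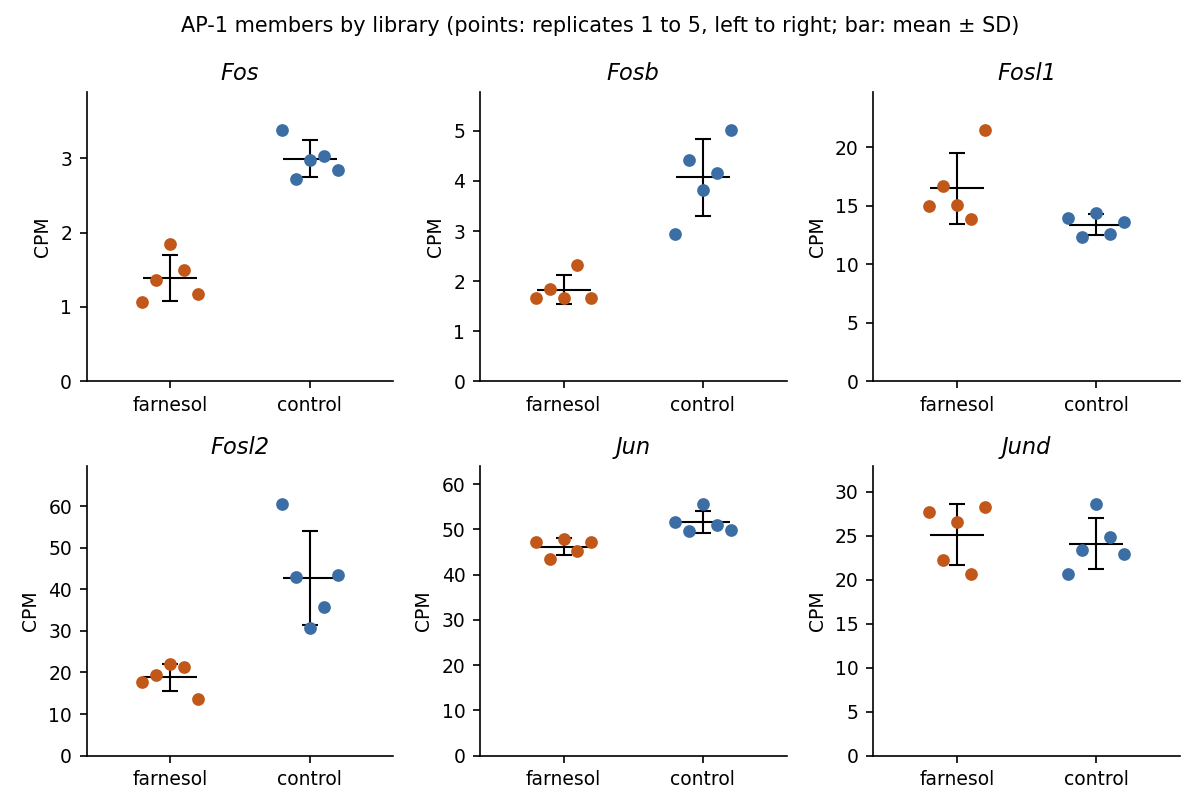
Level of each AP-1 member in CPM (vertical axes, each from 0) in 5 farnesol and 5 control libraries; points are libraries and black bars the mean ± SD. Fos, Fosb, Fosl2 and Jun libraries with farnesol all lie below those of control, Fosl1 and Jund groups overlap, and Fosl2 spreads from 30.7 to 60.5 CPM within control.

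Jun, the subunit that the JNK kinases activate (chromosome 5, 109893145 to 109897656, minus strand), was the steadiest member. It stood at 47.1, 43.4, 47.9, 45.3 and 47.3 CPM in farnesol replicates 1 to 5, against 51.6, 49.7, 55.6, 51 and 49.9 CPM in control replicates 1 to 5. The groups did not overlap, yet the nearest libraries, farnesol 3 at 47.9 CPM and control 2 at 49.7 CPM, were close. In edgeR Jun changed by -0.16 on the log2 scale (SE 0.05, adjusted p = 0.0234). It was -0.22 in the fit that held the library axis (adjusted p = 0.0144) and -0.24, not called, in the fit that held the length slope (adjusted p = 0.0812). When each library's signal was first levelled over gene length by a smooth curve, the sign turned (0.04, adjusted p = 0.607), so the direction of Jun depends on that scaling.

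Jund, often described as the constitutive Jun protein (chromosome 16, 18734122 to 18735799, minus strand), had 27.7, 22.2, 26.6, 20.7 and 28.3 CPM in farnesol replicates 1 to 5. In control replicates 1 to 5 it had 20.7, 23.4, 28.6, 24.8 and 22.9 CPM. Both groups covered nearly the same range. The log2 fold change was 0.06, with a 95% interval from -0.17 to 0.29 (adjusted p = 0.638, edgeR), with -0.21 and -0.34 once the axis or the length slope entered the fit, not called in either. Junb, the remaining Jun gene, was not analysed here.

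**Figure D2:**
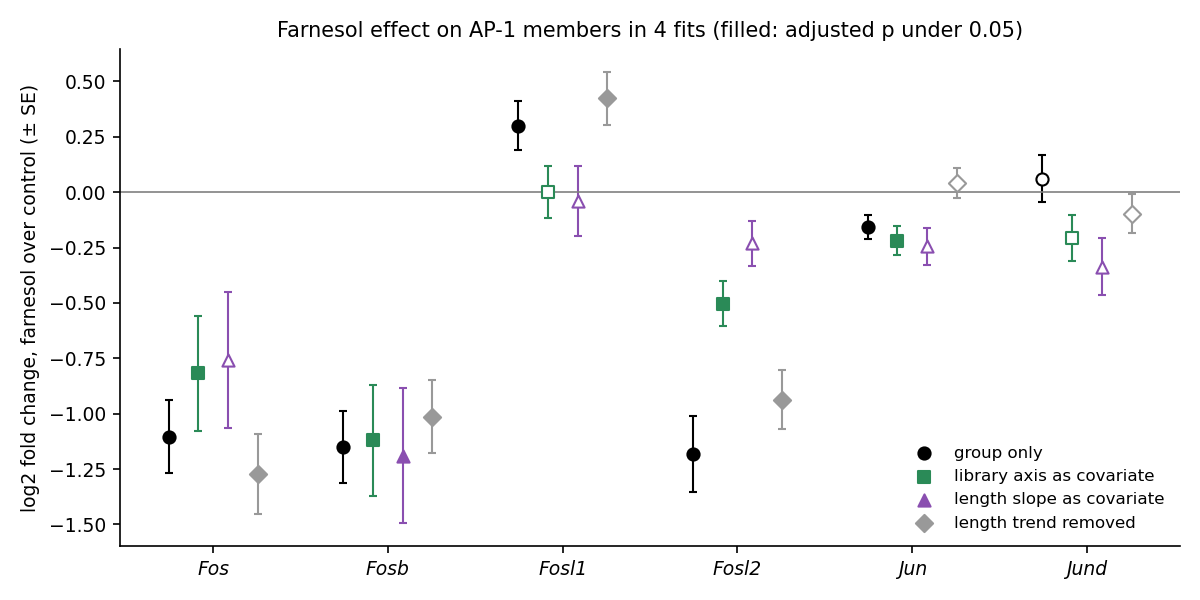
Log2 fold change of farnesol over control (vertical axis, ± SE) for each member in 4 fits: group only, with the library axis or the length slope as a covariate, and with a length trend removed; filled marks have an adjusted p under 0.05. Fosb lies between -1.19 and -1.01 in all 4, Fosl2 shrinks from -1.18 to -0.23 with the length slope, and Fosl1 moves to 0 with either covariate.

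With the library axis in the fit 4 members were called (Fos, Fosb, Fosl2 and Jun, all lower), against 20.6% of all tested genes (8.9% higher, 11.7% lower). With the length slope 1 was called (Fosb, lower), against 7.57% of all genes (3.02% higher, 4.55% lower). With the length trend removed 1 was higher (Fosl1) and 3 lower (Fos, Fosb and Fosl2), against 56.6% of all genes (32.1% higher, 24.5% lower). Farnesol 3 and control 3 lay side by side on the axis, at -0.07 and 4.06, and so allow a view of the groups at a like score, though with 1 library each and no test. In farnesol 3 and control 3, Fosb was at 1.66 and 3.82 CPM, Fos at 1.85 and 2.98 CPM, and Fosl2 at 22 and 30.7 CPM. Jun stood at 47.9 CPM in farnesol 3 and 55.6 CPM in control 3, Fosl1 at 15.1 and 14.4 CPM, and Jund at 26.6 and 28.6 CPM.

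**Figure D3:**
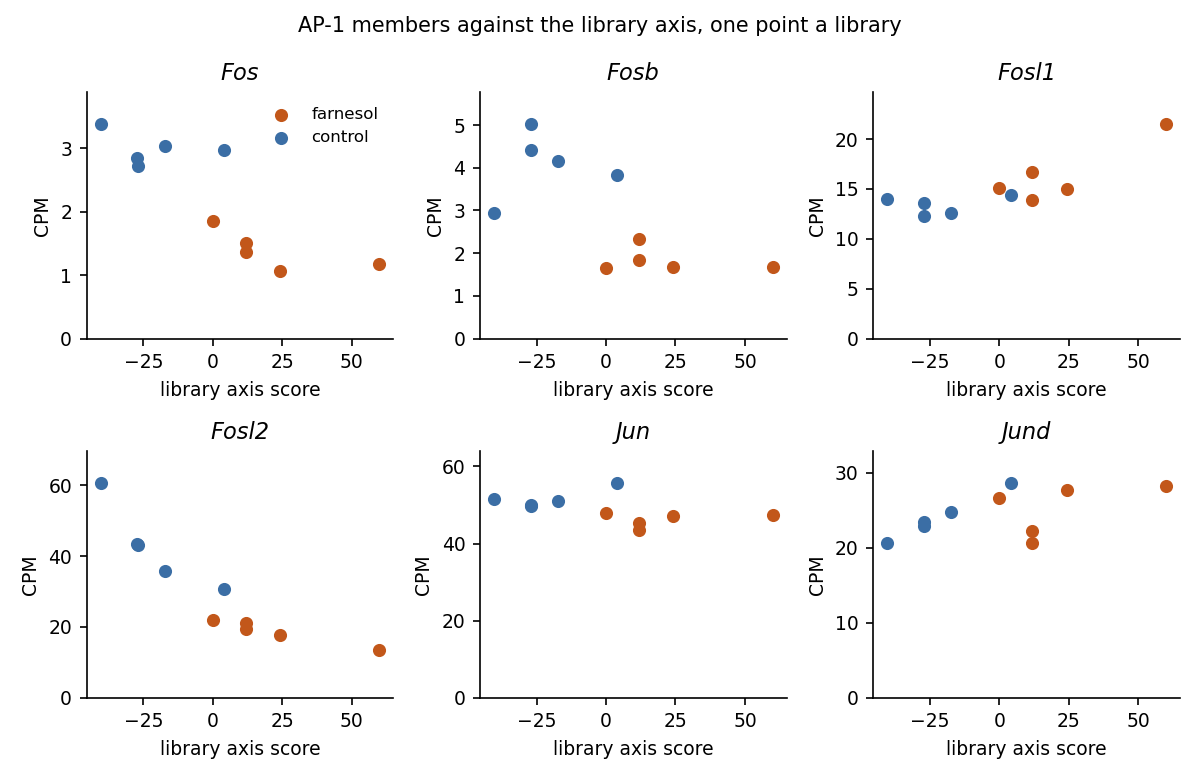
Level of each member in CPM (vertical axes, from 0) against the library axis score (horizontal axes), 1 point a library, farnesol and control by colour. Fosl2 falls along the axis inside both groups, whereas Fosb differs between farnesol and control libraries at like scores, and Jun hardly changes along it.

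Levels of different genes can be set side by side only per length, so FPKM (deposited values scaled by gene length and library total) are used from here on for the makeup of the pool. Jund was the most abundant member in every library, at 15 ± 1.95 FPKM in farnesol and 14.2 ± 1.75 FPKM in control (SD, n = 5 each). Jun came next, with 10.3 ± 0.392 FPKM in farnesol and 11.4 ± 0.535 FPKM in control, except in control 1, where Fosl2 at 11.6 FPKM stood just above Jun at 11.4 FPKM. In farnesol libraries Fosl1 (4.65 ± 0.768 FPKM) stood above Fosl2 (3.67 ± 0.696 FPKM) in 4 of 5. In control libraries Fosl2 (8.2 ± 2.16 FPKM) stood above Fosl1 (3.73 ± 0.251 FPKM) in 5 of 5. Fos, at 0.881 ± 0.205 FPKM in farnesol and 1.87 ± 0.153 FPKM in control, and Fosb, at 0.494 ± 0.0796 FPKM in farnesol and 1.08 ± 0.205 FPKM in control, closed the order in all 10 libraries.

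The ratio of Fosl1 to Fosl2 in FPKM was 1.23, 1.25, 1, 0.951 and 2.3 in farnesol replicates 1 to 5, against 0.335, 0.415, 0.68, 0.512 and 0.455 in control replicates 1 to 5. All farnesol libraries were above all control libraries, although the ratio was picked after its values were seen and is given without a test. It also runs with the library axis, with the highest ratio in farnesol 5 and the lowest in control 1. At a like axis score it was 1 in farnesol 3 and 0.68 in control 3. Fosl2 made up 37.8% ± 6.53 of the summed Fos family FPKM in farnesol and 54.4% ± 6.3 in control, and Fosl1 48% ± 8.16 in farnesol and 25.5% ± 3.81 in control (SD, n = 5 each).

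The summed FPKM of the 4 Fos genes was 8.87 to 10.3 in farnesol libraries and 12.8 to 18.4 in control libraries, which did not overlap. That of Jun and Jund was 22.7 to 27.2 in farnesol and 23.6 to 29.2 in control, with overlap. The Fos genes thus held 27.8% ± 2.33 of the summed FPKM of all 6 members in farnesol and 36.8% ± 4.98 in control (SD, n = 5 each). At a like axis score it was 27.6% in farnesol 3 and 30.5% in control 3.

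**Figure D4:**
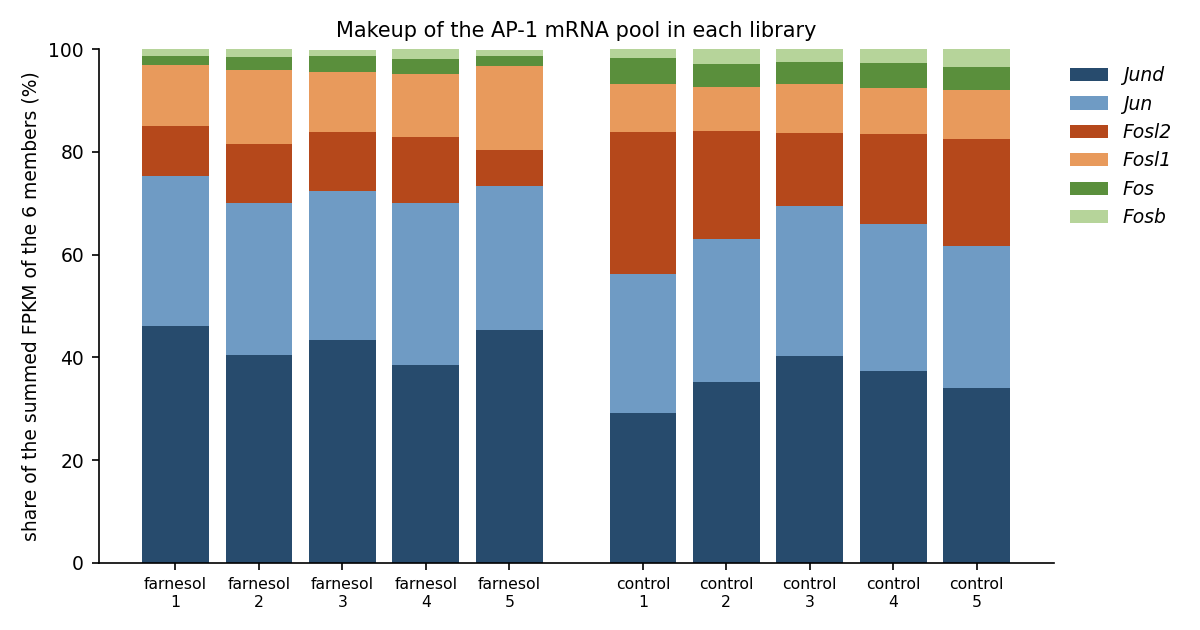
Share of the summed FPKM of the 6 members (vertical axis, percent) taken by each, 1 bar a library, farnesol bars on the left and control bars on the right. Fosl2 takes 7.06% to 12.9% in farnesol libraries and 14.1% to 27.7% in control libraries, while the Jund share is 38.6% to 46.2% in farnesol and 29.1% to 40.3% in control.

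Genes whose log2 CPM ran most like each member over the 10 libraries were found by Pearson's r, a measure that also holds the group difference and the library axis that these libraries share. For Fosl2 they were Fbn1, the fibrillin of elastic fibres, and Herc1, a large ubiquitin ligase, both at r = 0.998. Fbn1 was 1.7-fold lower, at 135 ± 16.3 CPM in farnesol and 230 ± 40.2 CPM in control. Like Fosl2 it shrank when covariates entered the edgeR fit, to -0.33 on the log2 scale with the axis and -0.14, not called, for the length slope (adjusted p = 0.242). For Fos they were Ntm (r = 0.982) and Mark1 (0.981), for Fosb Fez2 (0.973) and Gla (0.966), and for Fosl1 C2cd2l (0.978) and Get4 (0.976). Jun ran most like Cdsn (0.938) and Pkig (0.933), and Jund most like Xbp1 (0.952) and Vgf (0.929).

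Immediate early genes outside the Fos and Jun families, which the same stimuli induce, gave 12 of 18 tested genes lower in farnesol and none higher, against 30.1% lower among all tested genes. Their median log2 fold change was -0.36, against 0.01 over all genes. When the axis and the length slope entered the fit 11 and 7 were lower, against 11.7% and 4.55% of all genes. With the length trend removed 12 were lower and 1 higher, against 24.5% and 32.1% of all genes. Egr1, a zinc finger factor, had 15.8, 16.7, 15.7, 15.5 and 14.7 CPM in farnesol replicates 1 to 5, against 24.1, 24, 23.6, 23.7 and 23.8 CPM in control replicates 1 to 5. Its groups stood clearly apart, a change of -0.60 on the log2 scale (SE 0.06, edgeR's adjusted p = 9.19e-06). It was -0.53 with the axis and -0.52 for the length slope, called in both. Nr4a1, an orphan nuclear receptor, was 1.66-fold lower, and Ccn2, a matricellular protein, was 1.35-fold lower, both called with either covariate. Myc did not pass, at 19.4 ± 1.19 CPM in farnesol and 19.7 ± 1.07 CPM in control, and neither did Ier2, Ier5, Klf2, Klf4 and Zfp36. Heat shock genes, which rise with handling stress, went both ways, with 3 of 8 higher (such as Hspe1 and Hspa8) and 3 lower (such as Hsp90aa1). Over all tested genes 29.4% were higher and 30.1% lower. With the axis in the fit 0 were higher and 4 lower, against 8.9% and 11.7% of all genes.

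**Figure D5:**
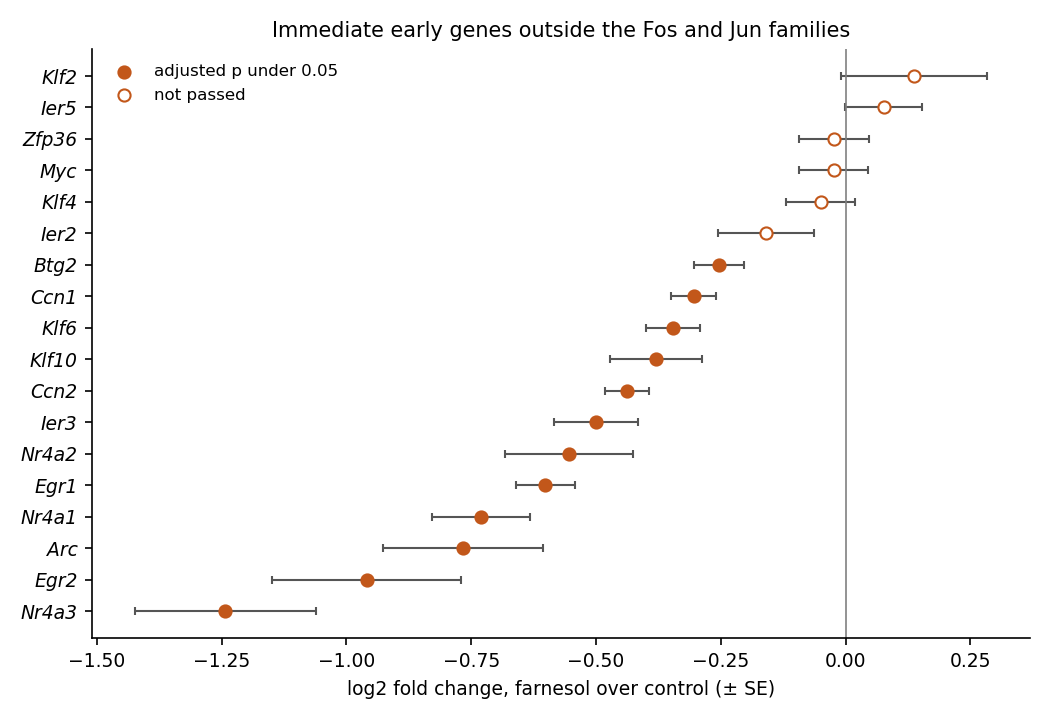
Log2 fold change of farnesol over control (horizontal axis, ± SE) of the 18 tested immediate early genes outside the Fos and Jun families; filled marks have an adjusted p under 0.05. The 12 filled marks all lie below 0, from -0.25 for Btg2 to -1.24 for Nr4a3.

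Partners that can join Fos or Jun proteins in a dimer moved in both directions. Among the 9 that could be tested, 3 were higher, 3 lower and 3 not called, against 29.4% higher and 30.1% lower among all tested genes. Maff, a small Maf protein, was 1.3-fold higher and called with either covariate. Jdp2, a repressor that pairs with Jun, had 14.6 ± 1.36 CPM in farnesol and 10.3 ± 1.47 CPM in control (1.42-fold higher), while Maf was 1.78-fold and Atf7 2.37-fold lower. None of these 3 was called with either covariate. Atf3, a stress-induced partner, did not pass, at 1.48 ± 0.57 CPM in farnesol and 1.64 ± 0.226 CPM in control, and Batf2 was at 0. Over the other 39 genes of the table with a bZIP domain in its Pfam column, 28 were tested, of which 9 were higher, 11 lower and 8 not passed (median log2 fold change -0.01). With the axis 3 of these were higher and 2 lower, against 8.9% and 11.7% of all tested genes. For the length slope 1 was higher and 0 lower, against 3.02% and 4.55%.

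Of 12 factors listed as regulators of Fos and Jun transcription, in either direction, 7 were lower and 1 higher, against 30.1% lower and 29.4% higher among all tested genes. With the axis 4 were lower and 0 higher, against 11.7% and 8.9% of all genes. For the length slope 1 was lower and 0 higher, against 4.55% and 3.02%. With the length trend removed 5 were lower and 3 higher, against 24.5% and 32.1%. Srf, which binds the serum response element of Fos, was 47.6 ± 2.87 CPM in farnesol and 53.9 ± 2.62 CPM in control, a change of -0.18 on the log2 scale (edgeR's adjusted p = 0.0182). It was -0.30 with the axis and -0.32 for the length slope, and was lost with the length trend removed (-0.01). Mrtfb, an actin-regulated coactivator of Srf, was 3.96-fold lower at low counts, Mef2a 2.6-fold and Creb1 1.89-fold lower. None of these 3 was called with the length slope, nor Creb1 with the axis.

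Kinases that act on Fos and Jun proteins or lie just above them gave 3 higher and 6 lower of 14 tested, beside 29.4% higher and 30.1% lower over the whole table. With the axis 1 was higher and 1 lower, against 8.9% and 11.7% of all tested genes. For the length slope it was 0 of either, against 3.02% and 4.55%. With the length trend removed 5 were higher and 3 lower, where 32.1% of all genes were higher and 24.5% lower. Rps6ka4, also called MSK2, rose 1.5-fold, Mapk7, which encodes ERK5, rose 1.39-fold, and Rps6ka3, which encodes RSK2, was 1.63-fold lower. Mapk3, the gene of ERK1, had 0 counts throughout. Whether reads of this gene could be counted was not tested, so the 0 does not show that its RNA was absent. Of 8 tested genes that govern the decay of Fos and Jun mRNA or protein, 1 rose and 3 fell. The shares over the whole table were 29.4% higher and 30.1% lower. None of the 8 was called with either covariate. Calls also thinned over the whole table, to 20.6% for the axis and 7.57% for the length slope. With 8 genes, 0 calls thus does not set this list apart. The 3 of this list that fell were Itch, Elavl1 and Zfp36l1. The ubiquitin ligase Itch was 1.48-fold lower, Elavl1, an mRNA stabiliser, 1.32-fold lower, and Zfp36l1, which promotes mRNA decay, 1.21-fold lower. On the log2 scale Itch was at 0.00 and Zfp36l1 at 0.08 with the length slope, and Zfp36l1 at 0.02 with the axis.

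Genes known as AP-1 targets did not move one way. Of 19 tested, 6 were higher and 9 lower, against 29.4% higher and 30.1% lower among all tested genes. Their median log2 fold change was -0.04. When the axis entered the fit 6 were higher and 6 lower, against 8.9% and 11.7% of all genes. For the length slope 5 were higher and 4 lower, against 3.02% and 4.55%. Mmp3, which encodes stromelysin, stood at 795, 753, 805, 811 and 766 CPM in farnesol replicates 1 to 5, against 536, 544, 546, 551 and 549 CPM in control replicates 1 to 5, with no overlap. It changed by 0.53 on the log2 scale (SE 0.04, edgeR's adjusted p = 1.72e-06), by 0.55 with the axis and by 0.54 for the length slope. Ccnd1, a D cyclin, rose 1.6-fold. Ptgs2, the inducible cyclooxygenase, was 2.34-fold lower, with a log2 fold change of -1.22 that was -0.76 and -0.63 with the covariates. All 3 were called in these fits.

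All 6 members belong to the osteoclast differentiation pathway named in the table. Its other genes gave 23 higher and 25 lower of 70 tested (median log2 fold change 0.03), where the shares over all tested genes were 29.4% higher and 30.1% lower. The counts were 12 higher and 16 lower with the axis, against 8.9% and 11.7% of all genes. For the length slope they were 7 of each, against 3.02% higher and 4.55% lower.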

How the data were processed

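Per the file headers, the table that the authors deposited holds raw read counts and FPKM for each gene in each library. Build rn7, the aligner HISAT2 (2.0.5), HTSeq (0.9.1), StringTie and DESeq appear in the submitters' processing notes, without their roles. The table had 23052 rows, of which 1 repeat was removed. The test on counts was edgeR's (4.0.16, under R 4.3.3; filterByExpr, TMM, robust quasi-likelihood fit, group only, Benjamini-Hochberg over 12893 genes at 0.05). The SE is the log2 fold change divided by the square root of F. CPM uses TMM-scaled totals, except in the summed marker levels and the limit at 0 counts, which use plain library totals. The limit that 0 counts leaves is 3 counts per library (0.064 to 0.072 CPM), counting error only. Promoter windows are RefSeq's, 250 bases before the gene start.

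The members and gene lists were chosen with earlier results of these data known. Genes outside the members were named by a rule: Egr1, Atf3, Jdp2, Myc and Srf, up to 3 of each list with the smallest p, listed genes at 0, and 2 genes most like each member. Other list genes enter counts only. Names of genes that did not pass, Nr4a3, Btg2 and Fosl1's neighbour were added after their values were seen. Junb, Mafk, Dusp1, Cop1 and Hspa1b were not analysed here, and 1 further listed gene is not reported here. Alternatives were size factors, filters, DESeq2 1.42.0, limma 3.58.1 (voom with quality weights, and trend on log2 FPKM with pseudocounts of 0.1 and 1), the replicate number as a block, the library axis, the length slope, a length trend (5 degrees of freedom) and each library left out. The fit was tested on simulated data with few changed genes. These simulated data held no library axis or length trend, so that test does not cover them.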

Additional observations from a re-analysis of the deposited data

Results flagged for a closer look

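The highest or lowest library stood far from the other 4 of its group in 5 of 80 groups of values checked, where chance gives about 5% of groups. Fosb was at 2.33 CPM in farnesol 4, against 1.66 to 1.84 CPM in the other farnesol libraries, which is still below every control library. Without that library its log2 fold change was -1.25, and the call held. Atf3 was at 2.49 CPM in farnesol 1 and at 1.17 to 1.38 CPM in the other farnesol libraries. Control 3 was the highest control library for Jdp2, at 12.8 CPM against 9.1 to 9.94 CPM, and for Mapk7, at 24.5 CPM against 19.8 to 20.6 CPM. Ccnd1 was at 768 CPM in farnesol 5 and at 569 to 607 CPM in the other farnesol libraries. Farnesol 5 and control 3 are the highest libraries of their groups on the library axis. The part of the axis in these values was not tested.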

How the results depend on the processing

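Fosb kept its direction and call under all 24 alternatives (log2 fold change -1.25 to -0.47, with -0.47 on log2(FPKM + 1)), and Fos and Fosl2 under all but the length slope, where they were at -0.76 (adjusted p = 0.165) and -0.23 (adjusted p = 0.212). Fosl1 ranged over 0.19 to 0.35 with 1 library left out (highest adjusted p = 0.0798). It missed the threshold with the replicate block (0.29), with the axis (0.000975), with both end libraries of the axis left out (0.20, chosen after seeing the data), and was -0.0385 with the length slope. Jun ranged over -0.17 to -0.13 with 1 library left out, where the call ended without farnesol 2, farnesol 4 or control 3 (highest adjusted p = 0.064). It missed the threshold with upper quartile factors (-0.13), the replicate block (-0.16) and the length slope (-0.24), and was 0.0429 with the length trend removed. Jund was called under none.

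Changed members numbered 3 at an adjusted p under 0.01, 3 with the replicate block, 1 with the length slope, and 3 to 5 with 1 library left out (3 without farnesol 2). Changed genes numbered 976 with the length slope and 2656 with the axis, against 7671, and 6880 to 7904 with 1 library left out. The replicate numbers pair nothing in the labels, and same-numbered libraries correlated by -0.401 to 0.0524, none best with its own number. The cause of each change was not tested. Of 1196 values of 50 other named genes, 1128 kept their side of the threshold and, where called, their direction. Called values that changed sign, or values called after it, were Atf7 (0.0576), Itch (0.00169), Zfp36l1 (0.0814) and Runx2 (0.12) with the length slope, Zfp36l1 (0.0193) and Runx2 (0.0189) with the axis, and Spp1 (-0.00865) and Xbp1 (-0.12) with the length trend removed. Fos and Fosb rest on fewer than 250 reads per library.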
